A study of Homo sapiens with 9 samples.

Results

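Embryoid bodies grown for 7 days with 50 mM ethanol were compared with embryoid bodies grown for 7 days without it, in the presence and in the absence of an additive abbreviated FA. The cells were NCCIT, a human embryonal carcinoma line that resembles early pluripotent cells, and embryoid bodies are the floating aggregates such cells form in dishes to which they cannot attach. Genes were selected on a single property: the difference between the ethanol array and its match without ethanol had the same sign in both pairs. Of the 33297 transcript clusters on the array, 8338 were higher and 7671 lower in both pairs, 16009 in all. Of these agreeing clusters, 4773 of the higher and 4819 of the lower passed a brightness filter, which kept 16856 clusters whose mean over the 4 day 7 arrays exceeded the median of all values. With 1 cluster taken for each gene that the annotation names, 3664 genes were higher and 2698 lower in both pairs, of 11051 genes tested.

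4 single arrays carry the comparison: EtOH at day 7, EtOH+FA at day 7, untreated embryoid bodies at day 7 (the differentiation array of the labels), and FA at day 7. EtOH was matched with untreated, and this is called the pair without FA. EtOH+FA was matched with FA, and this is called the pair with FA. No array enters both pairs. A further 4 arrays repeat the layout at day 21, and 1 array holds undifferentiated NCCIT cells. The ethanol concentration was 50 mM wherever ethanol was used, and the medium was renewed daily to hold it. No source used here says what FA is or how much was added. All arrays came from the same line, so each group describes NCCIT alone, and nothing in the labels says that arrays came from separate cultures. The p-values below thus rest on the scatter among these arrays alone, part of which may be technical. An exact two-sided permutation test of 2 arrays against 2 cannot give a p below 0.33.

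Many of the genes described below belong to a few well studied programmes. When oxygen is scarce in the middle of an aggregate, the hypoxia-inducible factors escape degradation and switch on genes of glucose uptake, glycolysis, vessel growth and mitochondrial turnover. When amino acids run short or unfolded protein builds up in the endoplasmic reticulum, the transcription factor ATF4 switches on amino acid transporters, serine and one-carbon enzymes and aminoacyl-tRNA synthetases. Embryoid bodies pass from a pluripotent state toward the germ layers, so undifferentiated cells give the starting point against which day 7 can be read.

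The labelled cell type was checked against its markers. Values are log2 expression levels that the authors made with RMA, and the median of the table was 7.71. Of 14 embryonal carcinoma and pluripotency markers, 11 were on the array with a cluster of their own and all 11 were tested. Their mean level was 11.35 in EtOH and 11.43 in EtOH+FA, against 11.40 in untreated and 11.41 in FA, and it was 11.60 in undifferentiated cells. SOX2, a core pluripotency factor, stood between 12.18 and 12.22 on the 4 day 7 arrays. Mean levels of the neural, mesoderm, endoderm, trophoblast and mesenchyme markers lay between 6.11 and 8.0 on these arrays. Arrays were bulk RNA of whole aggregates, so fewer cells of a type and less RNA per cell cannot be told apart. The EtOH array stood apart from the rest of day 7: its correlation with the other 3 arrays across all clusters was 0.9898 to 0.9910, against 0.9955 for EtOH+FA with both arrays that lacked ethanol and 0.9974 for FA with untreated. For many lists the median is therefore also given for the pair with FA, which does not contain that array. Many leading genes are given by their level on each array. Where only a mean difference is given, it includes the EtOH array.

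At any size, the matched differences agreed in sign for 56.9% of the clusters tested, 28.3% higher and 28.6% lower in both pairs. Agreement grew with the size of the difference. Where both differences reached at least 1.2-fold, 371 clusters were higher in both pairs (2.2%) and 410 lower in both (2.43%), while 240 went in opposite directions. At 1.5-fold, 28 clusters were higher (0.166%) and 22 lower (0.131%), and 4 were opposite. At 2-fold, 2 were higher (0.0119%) and 3 lower (0.0178%), and 0 were opposite. Among named genes the separation was cleaner, with 317 higher (2.87%), 201 lower (1.82%) and 56 opposite at 1.2-fold, and 26 higher (0.235%), 12 lower (0.109%) and 0 opposite at 1.5-fold. At 2-fold, 2 genes were higher (0.0181%), 1 was lower (0.00905%) and 0 were opposite. Without the brightness filter it was not clean: at 1.5-fold, 43 clusters were higher, 96 lower and 113 opposite.

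Across the 11051 genes, the differences of both pairs correlated at r = 0.417, and at r = 0.089 across the 4202 tested clusters with no gene symbol. Genes within an array share its hybridisation and depth of signal, so these values describe the arrays and are no test. The differences spread more widely in the pair without FA, with an SD across genes of 0.244, against 0.171 in the pair with FA. FA minus untreated, which contains no ethanol, had an SD of 0.081. The excess of the pair without FA lay on the lower side: on its own it held 80 clusters at least 1.5-fold higher and 677 lower, against 83 higher and 45 lower in the pair with FA. A shift common to the named genes was small, with a median over genes of 0.01 in the pair without FA and 0.02 in the pair with FA. Over clusters, the median without FA changed with brightness. It was 0.021 with no filter, -0.016 over clusters tested, -0.049 under a stricter brightness filter and -0.101 over tested clusters with no symbol. In the pair with FA these medians were 0.0, 0.008, 0.022 and -0.018.

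**Figure D1:**
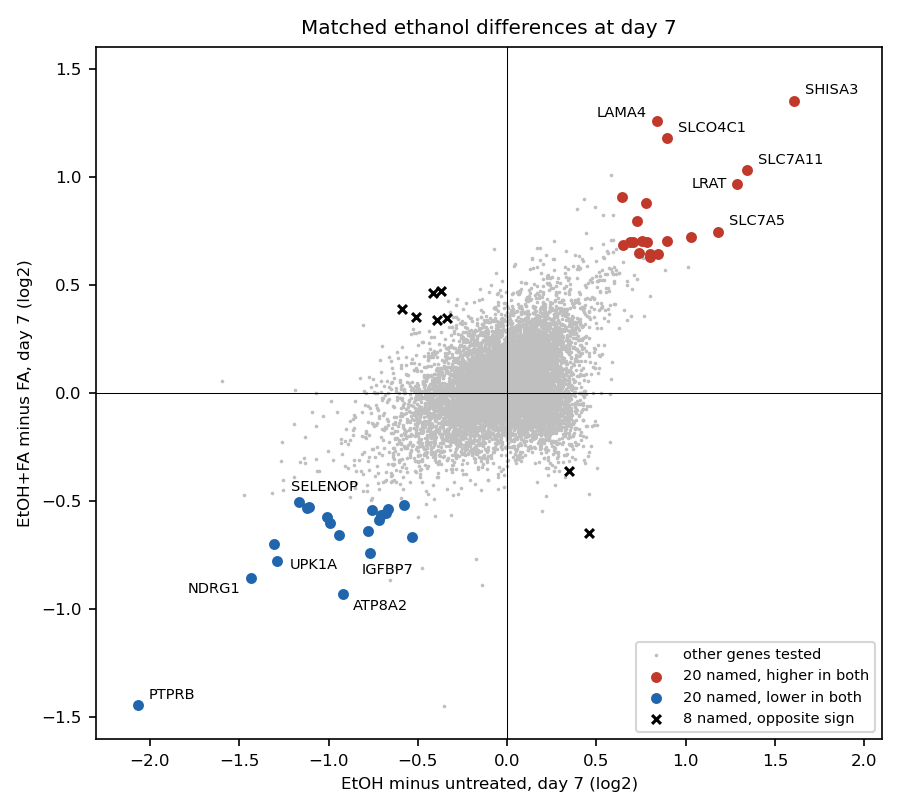
Each point is 1 of the 11051 genes tested, with EtOH minus untreated on the x axis and EtOH+FA minus FA on the y axis, both on the log2 scale; red and blue mark the 20 genes named in each direction and crosses the 8 named genes of opposite sign. SHISA3 lies farthest toward the upper right and PTPRB farthest toward the lower left, and no gene reaches 1.5-fold in both pairs with opposite signs.

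limma, fitted over all 9 arrays and 16856 clusters with Benjamini-Hochberg adjustment, called 0 clusters at an adjusted p of 0.05, either higher or lower (0%). The smallest adjusted p was 0.0816, shared by many clusters, and 3268 clusters (19.4%) had an unadjusted p under 0.05. The same model fitted to the 11051 named genes, 1 cluster each, called 345 of them (3.12%): 220 higher (1.99%) and 125 lower (1.13%). That fit, called the gene-level fit from here on, is an alternative to the fit over clusters, and its calls are given as such. Named below are the 20 genes in each direction with the largest weaker difference, the weaker difference being the smaller of a gene's values in both pairs. All 40 had non-overlapping groups, as did 3142 genes on the higher side (28.4%) and 2273 on the lower side (20.6%) of all genes tested. None of the 40 passed the limma fit over clusters, with adjusted p-values of 0.0816 for each of the 20 higher genes and 0.0816 to 0.12 for the lower genes. All 40 were called by the limma gene-level fit, at adjusted p-values of 0.0038 to 0.0132 for the higher and 0.0119 to 0.0329 for the lower genes. Since the rule picked the largest agreeing differences, that count is a description of the rule and no separate evidence. Standard errors below are those of the fit over clusters.

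Amino acid transporters were among the genes with the largest differences on the higher side, where SLC7A11 and SLC7A5 stood among the 20. SLC7A11, the cystine and glutamate exchanger, read 11.64 in EtOH and 11.38 in EtOH+FA, against 10.29 in untreated and 10.35 in FA. Both ethanol arrays exceeded both arrays without ethanol by more than a log2 unit, and the mean difference was 1.19 ± 0.10 (SE), 2.28-fold. SLC7A5, the catalytic subunit of the large neutral amino acid transporter, read 10.20 in EtOH and 9.68 in EtOH+FA, against 9.02 in untreated and 8.94 in FA. The EtOH array was the highest of the 4, and the mean difference was 0.96 ± 0.12 (SE). Its heavy chain partner SLC3A2 read 11.40 in EtOH and 11.32 in EtOH+FA, against 11.06 in untreated and 11.14 in FA, a mean difference of 0.26 ± 0.07 (SE). SLC6A9, a glycine transporter, averaged 0.73 ± 0.10 (SE) higher and SLC1A3, a glutamate transporter, 0.64 ± 0.08 (SE) higher.

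Of 20 tested amino acid transporters, 16 were higher and 2 lower in both pairs, and the same 16 and 2 had groups that did not overlap. The background over all genes was 33.2% higher and 24.4% lower, and 28.4% higher and 20.6% lower without overlap. The list's median difference was 0.32 in the pair without FA and 0.17 in the pair with FA, against 0.01 and 0.02 over all genes. The gene-level fit called 6 of the 20 higher and 0 lower, against 1.99% and 1.13% of all genes: SLC7A11, SLC7A5, SLC6A9, SLC1A3, SLC1A5 (neutral amino acids) and SLC7A1 (cationic amino acids). The members lower in both pairs were the taurine transporter SLC6A6 at -0.18 ± 0.08 (SE) and the lysosomal carrier SLC36A1 at -0.13 ± 0.07 (SE).

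The serine synthesis genes PSAT1 and PSPH and the folate gene ALDH1L2 were also higher with ethanol in both pairs. PSAT1, which makes phosphoserine, read 10.66 in EtOH and 10.57 in EtOH+FA, against 9.86 in untreated and 9.92 in FA, and undifferentiated cells read 11.29. ALDH1L2, the mitochondrial enzyme that oxidises formyl-tetrahydrofolate, read 9.33 in EtOH and 9.19 in EtOH+FA, against 8.60 in untreated and 8.39 in FA. Neither gene's groups overlapped, and the mean differences were 0.72 ± 0.07 and 0.76 ± 0.09 (SE). Of 22 tested folate and one-carbon genes, 15 were higher and 5 lower in both pairs, beside 33.2% and 24.4% of all genes, with median differences of 0.15 without FA and 0.10 with FA. The gene-level fit called 4 of the 22 higher and 0 lower, against 1.99% and 1.13% of all genes: ALDH1L2, PSAT1, PSPH (the last step of serine synthesis, 0.51 ± 0.08 SE) and CTH (which makes cysteine from cystathionine, 0.37 ± 0.07 SE). At the other end, MTR, the folate-dependent methionine synthase, stood at -0.27 ± 0.07 (SE) and AHCY, which clears S-adenosylhomocysteine, at -0.22 ± 0.06 (SE).

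Among the ATF4 and endoplasmic reticulum stress genes, CHAC1 and DDIT3 went opposite ways. CHAC1, which breaks down glutathione, read 9.96 in EtOH and 9.60 in EtOH+FA, against 8.92 in untreated and 8.88 in FA. DDIT3, which encodes the stress factor CHOP, read 9.51 in EtOH and 9.63 in EtOH+FA, against 10.45 in untreated and 10.28 in FA. The groups were apart by more than 0.6 for both genes, with mean differences of 0.88 ± 0.09 for CHAC1 and -0.80 ± 0.09 for DDIT3 (SE). ASNS (asparagine synthetase, 0.45 ± 0.08), SESN2 (a nutrient-sensing stress protein, 0.50 ± 0.10) and HERPUD1 (a component of endoplasmic reticulum-associated degradation, 0.53 ± 0.10) were higher in both pairs. The chaperone HSPA5, a general marker of unfolded protein, differed by 0.00 ± 0.06 (SE). Of 31 tested genes on the list, 16 were higher and 7 lower in both pairs, against 33.2% and 24.4% of all genes, so that the share of lower members (22.6%) was near that background. The gene-level fit called 4 higher (CHAC1, HERPUD1, SESN2 and ASNS) and 1 lower (DDIT3), where 1.99% and 1.13% of all genes were called. Median differences were 0.06 without FA and 0.08 with FA.

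Of 19 tested cytosolic aminoacyl-tRNA synthetases, the enzymes that charge tRNAs, 13 were higher and 0 lower in both pairs, where all genes gave 33.2% and 24.4%. The shift was small and lay mostly in the pair without FA, with a median difference of 0.17 there and 0.03 in the pair with FA. WARS1, for tryptophan, read 10.99 in EtOH and 10.86 in EtOH+FA, against 10.48 in both arrays without ethanol. GARS1 differed by 0.33 ± 0.07, MARS1 by 0.36 ± 0.08 and CARS1 by 0.32 ± 0.08 (SE). WARS1 and GARS1 were the 2 members called higher by the gene-level fit, beside 1.99% of all genes.

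Promoters of the genes above were searched for the core of the amino acid response element, the DNA word that ATF4 dimers bind. The word was TGATGNAA, read on both strands, and the window ran from 250 bases before to 50 bases after the RefSeq start site. The search was chosen after the expression values were seen. The word was present in 138 of 8917 promoters of genes tested (1.55%). It was present in 15 of 249 promoters of genes at least 1.2-fold higher in both pairs (6.02%) and in 1 of 139 of those lower (0.719%). It was also present in 6 of 16 synthetase promoters (37.5%), 3 of 16 transporter promoters (18.8%) and 5 of 30 promoters of the ATF4 and stress list (16.7%). The genes at least 1.2-fold higher that held it were ASNS, CARS1, CHAC1, GPX8, HERPUD1, LRRC49, MCFD2, NCOA7, NRIP1, PHACTR1, SLC1A3, SLC39A11, SLC7A1, SRPRB and ZNF436, and the lower one was MAP4K1. A match is a string of letters and does not show that a factor binds there. SLC7A11 has no entry among the promoters.

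The promoters of CHAC1, SLC1A3, CARS1 and MARS1 are shown as examples of the word in a stress gene, a transporter and a pair of synthetases, picked after the matches were known. SLC7A5 and SLC6A9, whose differences exceeded that of SLC1A3, and WARS1 and GARS1, the called synthetases, have 0 matches in the window. Sequences are from RefSeq, build GRCh38.p14, printed 5′ to 3′ along the gene, and capitals mark the match. CHAC1 lies at chr15:40953221-40953520 on the plus strand with the match 209 bases before the start site, SLC1A3 at chr5:36596338-36596637 on the plus strand with the match 220 bases before it, CARS1 at chr11:3057374-3057673 on the minus strand with the match 2 bases before it, and MARS1 at chr12:57487818-57488117 on the plus strand with the match 4 bases before it.
CHAC1: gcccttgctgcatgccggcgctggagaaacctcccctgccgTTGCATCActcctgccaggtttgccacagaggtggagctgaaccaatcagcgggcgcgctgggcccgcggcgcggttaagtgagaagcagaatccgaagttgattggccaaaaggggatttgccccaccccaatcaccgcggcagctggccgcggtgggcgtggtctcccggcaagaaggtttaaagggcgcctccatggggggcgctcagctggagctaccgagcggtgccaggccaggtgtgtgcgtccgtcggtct
SLC1A3: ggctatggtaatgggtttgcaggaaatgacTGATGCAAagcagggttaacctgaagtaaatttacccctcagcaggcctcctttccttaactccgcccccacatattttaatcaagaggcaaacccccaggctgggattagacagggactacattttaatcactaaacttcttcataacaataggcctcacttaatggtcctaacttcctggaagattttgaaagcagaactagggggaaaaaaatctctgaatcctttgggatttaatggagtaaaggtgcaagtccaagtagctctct
CARS1: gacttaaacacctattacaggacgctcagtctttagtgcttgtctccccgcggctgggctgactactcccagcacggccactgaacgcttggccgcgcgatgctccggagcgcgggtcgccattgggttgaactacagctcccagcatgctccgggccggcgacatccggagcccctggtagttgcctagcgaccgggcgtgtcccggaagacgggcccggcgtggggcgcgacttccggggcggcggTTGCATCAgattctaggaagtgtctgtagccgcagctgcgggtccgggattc
MARS1: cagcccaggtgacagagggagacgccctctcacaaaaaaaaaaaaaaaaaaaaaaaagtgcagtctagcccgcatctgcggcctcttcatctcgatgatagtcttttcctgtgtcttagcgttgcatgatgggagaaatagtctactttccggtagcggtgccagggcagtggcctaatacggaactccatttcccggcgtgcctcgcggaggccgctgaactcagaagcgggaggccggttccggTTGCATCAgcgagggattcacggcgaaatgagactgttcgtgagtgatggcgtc
In CHAC1, CARS1 and MARS1 the word was on the opposite strand, printed as TTGCATCA, and in SLC1A3 it read TGATGCAA.

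Metallothioneins and zinc transporters, which buffer and move metal ions, were higher by a narrow margin. Of 15 tested, 12 were higher and 1 lower in both pairs, against 33.2% and 24.4% of all genes, with medians of 0.20 without FA and 0.17 with FA. SLC39A14, a zinc and iron importer, read 9.67 in EtOH and 9.46 in EtOH+FA, against 9.13 in untreated and 9.06 in FA. SLC39A14 and SLC39A8 were called higher by the gene-level fit, 2 of 15 beside 1.99% of all genes. MT2A, a major metallothionein, read 12.18 in EtOH and 12.17 in EtOH+FA, against 11.94 in untreated and 11.93 in FA. Among 23 tested NRF2 and oxidative stress genes, which include SLC7A11, 10 were higher (43.5%) and 5 lower (21.7%) in both pairs, against 33.2% and 24.4% of all genes. NFE2L2, the gene for NRF2 itself, differed by 0.44 ± 0.10 and SRXN1, which repairs oxidised peroxiredoxins, by 0.44 ± 0.08, while the ferritin light chain FTL stood at -0.35 ± 0.07 (SE). HMOX1 and NQO1, textbook NRF2 targets, differed by 0.14 ± 0.08 and 0.20 ± 0.07 (SE), and neither was called.

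Further genes with large differences in both pairs had other roles. SHISA3, which holds back WNT receptors, read 9.10 in EtOH and 8.89 in EtOH+FA, against 7.49 in untreated and 7.53 in FA. It had the largest agreeing difference on the higher side, 1.48 ± 0.08 (SE) or 2.79-fold, and undifferentiated cells, at 7.64, lay near the arrays without ethanol. SLCO4C1, an organic anion transporter, read 9.64 in EtOH and 9.84 in EtOH+FA, against 8.74 in untreated and 8.66 in FA. Here the array with FA was the higher of the ethanol arrays, as it was for the laminin chain LAMA4, which read 8.22 in EtOH and 8.75 in EtOH+FA, against 7.38 in untreated and 7.49 in FA. SHISA3 and LAMA4 read below the brightness cut of 7.71 on both arrays without ethanol. These genes passed the filter only through the ethanol arrays.

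Genes of mitochondrial fuel entry were also among the 20. CPT1A, which admits fatty acids to mitochondria, read 9.15 in EtOH and 8.85 in EtOH+FA, against 8.30 in untreated and 8.20 in FA. MPC1, a subunit of the mitochondrial pyruvate carrier, read 9.35 in EtOH and 9.13 in EtOH+FA, against 8.55 in untreated and 8.50 in FA. ODC1, which starts polyamine synthesis, was 0.80 ± 0.11 (SE) higher, and SAT1, which acetylates spermidine and spermine for export, was -0.80 ± 0.12 (SE). SAT1 read 9.91 in EtOH and 10.29 in EtOH+FA, against 10.90 in untreated and 10.89 in FA. Of 14 tested polyamine genes, 5 were higher (35.7%) and 3 lower (21.4%) in both pairs, near the 33.2% and 24.4% of all genes.

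The other genes of the 20 averaged 0.67 to 0.83 higher. They were TMEM47, LHFPL6, OGFRL1, SH3BGRL2, the mechanosensitive channel PIEZO2, the somatostatin receptor SSTR1, the kainate receptor subunit partner NETO2, the mitochondrial transport adaptor TRAK2 and the VEGF receptor FLT1. FLT1 read 7.60 in untreated and 7.55 in FA, below the brightness cut of 7.71, and passed the filter only through the ethanol arrays. PIEZO2 has 2 tested clusters, and their mean differences of 0.80 and 0.74 went the same way. At the 1.5-fold boundary, 0.585 on the log2 scale, YAF2 lay just inside with a weaker difference of 0.591 and ODC1 just outside with 0.584. On the lower side IGFBP2 lay just inside with -0.586 and CRABP2 just outside with -0.571.

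Hypoxia genes were lower with ethanol as a list, and NDRG1 and PPFIA4 of that list stood among the 20 named on the lower side. NDRG1, a stress protein induced strongly by low oxygen, read 8.84 in EtOH and 9.15 in EtOH+FA, against 10.27 in untreated and 10.01 in FA. PPFIA4, a liprin of the same response, read 8.38 in EtOH and 8.78 in EtOH+FA, against 9.69 in untreated and 9.47 in FA. HILPDA, a lipid droplet protein named for its hypoxia induction but not on the list, read 10.26 in EtOH and 10.66 in EtOH+FA, against 11.36 in untreated and 11.19 in FA. In all of them EtOH was the lowest of the day 7 arrays, EtOH+FA was next, and both arrays without ethanol were above, with mean differences of -1.14 ± 0.14, -1.0 ± 0.16 and -0.82 ± 0.14 (SE).

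Of 38 tested hypoxia response genes, 0 were higher and 27 lower in both pairs, and in 26 the groups did not overlap. The background was 33.2% higher, 24.4% lower and 20.6% lower without overlap. The median difference was -0.55 in the pair without FA, where 37 of 38 were lower, and -0.17 in the pair with FA, where 28 of 38 were lower. The gene-level fit called 6 of the 38 lower, against 1.13% of all genes: NDRG1, PPFIA4, TMEM45A, ANKRD37, FAM162A and MXI1. VEGFA, the vessel growth factor, read 10.16 in EtOH and 10.43 in EtOH+FA, against 10.90 in untreated and 10.72 in FA. HIF1A, the oxygen-regulated factor itself, which is controlled mainly as a protein, read 11.37 in EtOH and 11.63 in EtOH+FA, against 11.52 in both arrays without ethanol.

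The hypoxia genes lay farther down in the pair without FA. INSIG2, a sterol sensor, differed by -1.27 without FA and -0.31 with FA, and BHLHE40, a transcriptional repressor, by -0.87 and -0.19. For ADM, a vasodilator peptide, and BNIP3L, a mitophagy receptor, the pair without FA differed by -0.39 and -0.26, while the pair with FA stood at 0.07 and 0.06. STC1, a secreted glycoprotein, and LOX, which crosslinks collagen, stood at -0.51 and -0.74 without FA and at 0.04 and 0.04 with FA. Whether FA or the EtOH array sets this gap was not tested, since each condition has 1 array.

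Glycolysis genes, several of which belong to the hypoxia programme, were lower as well. Of 22 tested glycolysis genes, 0 were higher and 19 lower in both pairs, all 19 without overlap, against 24.4% lower and 20.6% lower without overlap over all genes, with medians of -0.33 without FA and -0.13 with FA. GPI, which converts glucose 6-phosphate, read 12.01 in EtOH and 12.31 in EtOH+FA, against 12.73 in both arrays without ethanol. ENO2, an enolase, read 11.27 in EtOH and 11.50 in EtOH+FA, against 11.90 in both. They were the 2 members called lower by the gene-level fit, where 1.13% of all genes were called. Other enzymes differed less: LDHA was -0.21 ± 0.08, PGK1 -0.19 ± 0.07 and GAPDH 0.00 ± 0.07 (SE). Glucose transporter SLC2A1 read 13.08 in EtOH and 13.24 in EtOH+FA, against 13.42 in untreated and 13.41 in FA, in a table whose highest value was 14.31.

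**Figure D2:**
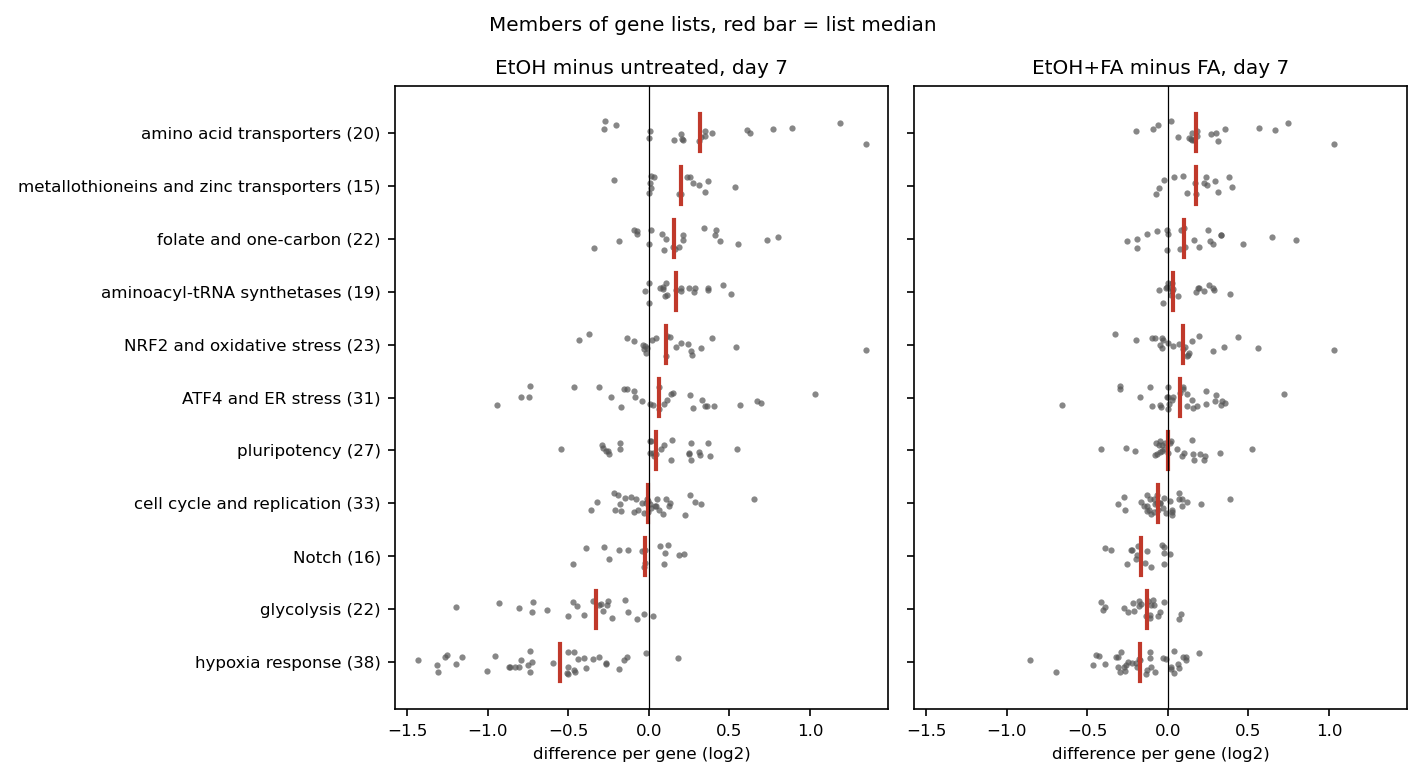
Each grey point is 1 tested gene of the list named at the left, with the number of tested genes in brackets, and the x axis gives its log2 difference in the pair without FA (left panel) and the pair with FA (right panel); red bars are list medians. Of the 11 lists drawn, hypoxia response has the lowest median in both panels, -0.55 and -0.17, and amino acid transporters the highest without FA, 0.32.

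The core of the hypoxia response element was searched in the same promoter windows, also after the values were seen. The word ACGTG, on either strand, was present in 2417 of 8917 promoters of genes tested (27.1%), in 17 of 32 of the hypoxia list (53.1%) and in 8 of 21 of the glycolysis list (38.1%). It was present in 42 of 139 promoters of genes at least 1.2-fold lower (30.2%) and in 46 of 249 of those higher (18.5%). With GCGTG also allowed, the shares were 64.0% of genes tested and 78.1% of the hypoxia list. They were 59.7% of promoters of genes at least 1.2-fold lower and 55.8% of those higher, both below the share of genes tested. At 1.5-fold, ACGTG alone was present in 1 of 7 promoters of lower genes and in 4 of 22 of higher genes. In all, 5 word definitions were searched. The other 2 gave shares in the 1.2-fold gene sets close to those of all genes tested: the antioxidant word TGANNNNGC was in 43.4% of promoters of genes tested, in 45.4% of those at least 1.2-fold higher and in 40.3% of those lower, and the metal response word TGCNCNC in 64.2%, 62.7% and 61.2%. Lists varied more, with the antioxidant word in 62.5% of transporter and 60.0% of metallothionein and zinc transporter promoters, and the metal response word in 31.2% of synthetase and 46.7% of ATF4 and stress promoters.

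The promoters of PPFIA4 and ANKRD37 are shown as hypoxia genes with a large difference and the word inside the window, picked after the matches were known. TMEM45A, a called member of the hypoxia list whose difference exceeded that of ANKRD37, has 0 matches in the window. SLC7A5 and HERPUD1, both higher with ethanol, have 2 and 4. PPFIA4 and ANKRD37 lie at chr1:203026241-203026540 and chr4:185396591-185396890 of GRCh38.p14, both on the plus strand, and capitals mark the matches.
PPFIA4: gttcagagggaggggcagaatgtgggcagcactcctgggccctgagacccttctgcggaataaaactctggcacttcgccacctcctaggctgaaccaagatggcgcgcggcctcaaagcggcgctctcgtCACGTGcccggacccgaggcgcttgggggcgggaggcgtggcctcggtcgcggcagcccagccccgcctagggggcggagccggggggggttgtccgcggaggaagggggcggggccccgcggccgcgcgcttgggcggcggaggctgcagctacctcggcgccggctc
ANKRD37: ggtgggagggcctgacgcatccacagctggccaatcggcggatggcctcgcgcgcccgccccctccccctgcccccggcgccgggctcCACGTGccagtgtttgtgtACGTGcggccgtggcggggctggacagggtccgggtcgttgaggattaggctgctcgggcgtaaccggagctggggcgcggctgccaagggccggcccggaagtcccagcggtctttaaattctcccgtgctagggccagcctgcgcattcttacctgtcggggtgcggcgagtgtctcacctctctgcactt
Both hold CACGTG, which reads the same on either strand and counts as 2 matches, and ANKRD37 holds a further match, 3 in all. ANKRD37, a HIF target, read 8.68 in EtOH and 9.39 in EtOH+FA, against 9.93 in untreated and 9.84 in FA.

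The largest difference of all belonged to PTPRB, a receptor tyrosine phosphatase best known from vascular endothelium. It read 8.30 in EtOH and 8.70 in EtOH+FA, against 10.36 in untreated and 10.14 in FA, a mean difference of -1.75 ± 0.18 (SE) or 3.37-fold lower. Undifferentiated cells, at 7.44, lay below all 4 day 7 arrays. FLT1, another gene of endothelium, went the other way at 0.78 ± 0.09 (SE), and the 6 tested genes of the endothelium and blood list were split, 2 higher and 1 lower in both pairs. Over all genes the shares were 33.2% and 24.4%.

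IGF-binding proteins had members in both directions. IGFBP2, an IGF-binding protein, read 11.82 in EtOH and 11.93 in EtOH+FA, against 12.54 in untreated and 12.51 in FA. IGFBP7 read 9.20 in EtOH and 9.18 in EtOH+FA, against 9.97 in untreated and 9.92 in FA, while IGFBP5 was 0.52 ± 0.08 (SE) higher. Of 7 tested genes around IGF binding, 2 were higher and 4 lower in both pairs, against 33.2% and 24.4% of all genes. UPK1A, a uroplakin membrane protein, read 8.07 in EtOH and 8.30 in EtOH+FA, against 9.35 in untreated and 9.08 in FA, and ATP8A2, a phospholipid flippase, read 7.77 in EtOH and 7.74 in EtOH+FA, against 8.69 in untreated and 8.66 in FA. The ATP8A2 arrays lay close together on each side, and its difference was -0.92 in one pair and -0.93 in the other.

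The remaining genes of the lower 20 averaged -0.55 to -0.83. They include EFEMP2, a fibulin of elastic fibres, DTNA, a dystrobrevin, SELENOP, the selenium carrier, GRPR, the receptor of gastrin-releasing peptide, DDX25, a germ cell RNA helicase, KDM2B, a histone demethylase, and the histone gene H2BC12. ID3, a BMP-induced inhibitor of basic helix-loop-helix factors, read 9.14 in EtOH and 8.69 in EtOH+FA, against 9.67 in untreated and 9.36 in FA. CXCR4, the CXCL12 receptor, read 7.94 in EtOH and 7.99 in EtOH+FA, against 8.52 in untreated and 8.51 in FA.

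**Figure D3:**
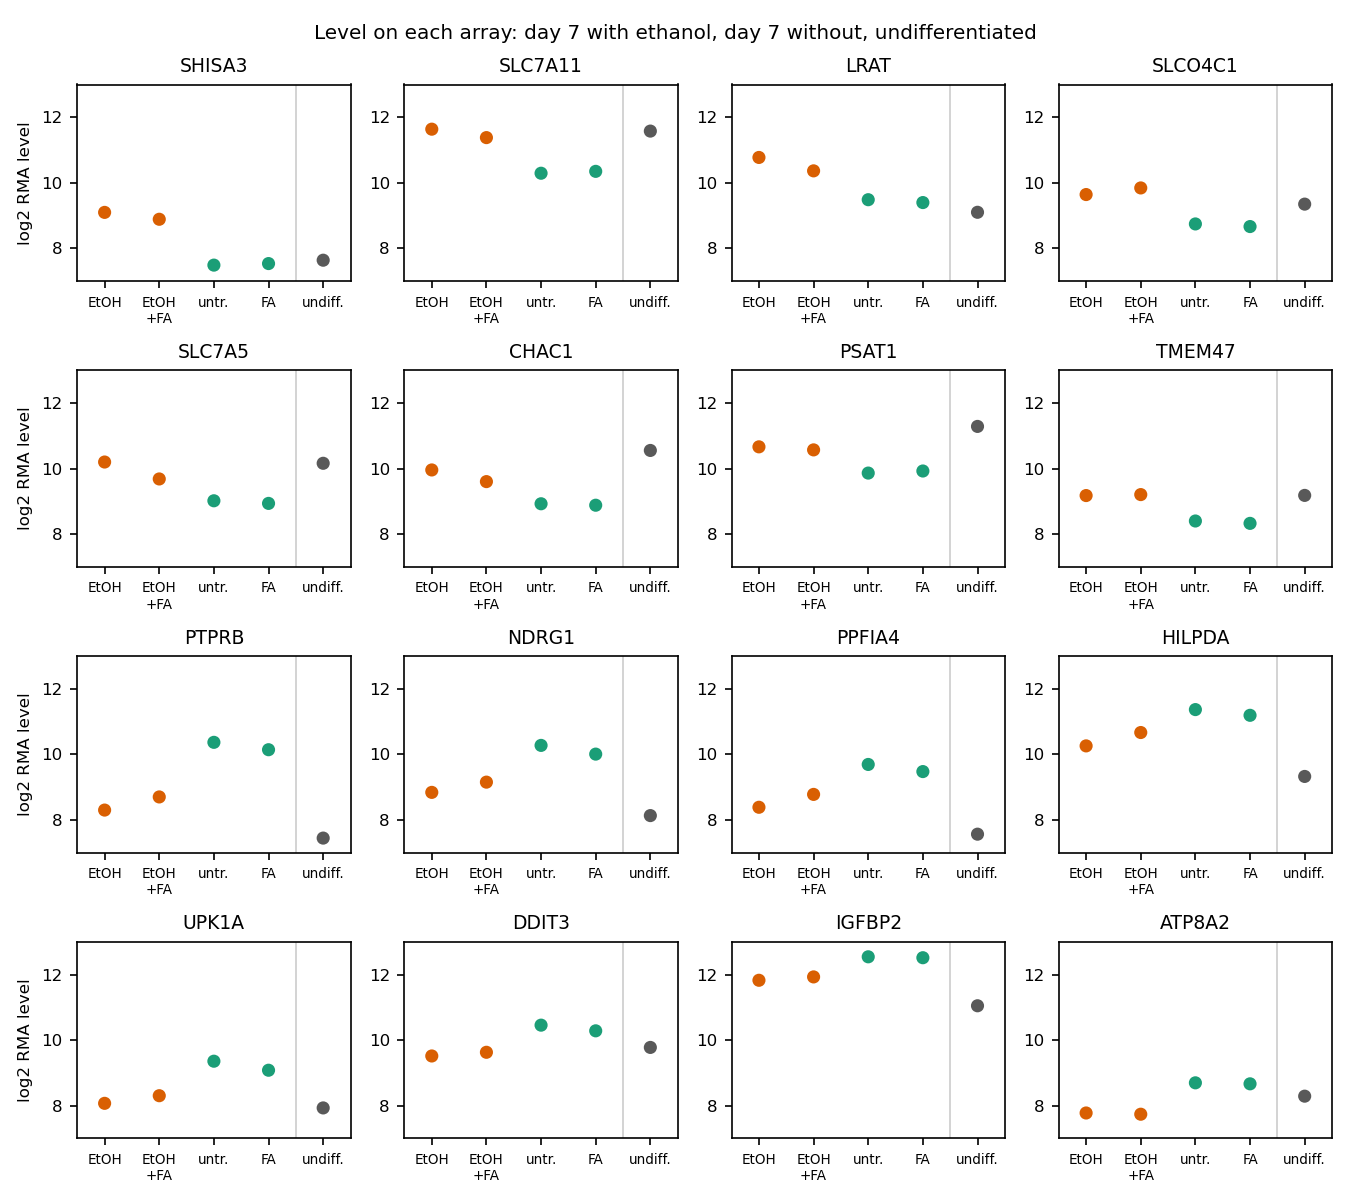
Log2 RMA level (y axis) of 16 named genes on each array (x axis), with EtOH and EtOH+FA in orange, untreated and FA in green and undifferentiated cells in grey; each point is 1 array. In every panel both orange points lie on 1 side of both green points, above in the first 8 genes and below in the last 8. The genes were picked for large differences of the same sign in both pairs, so this separation largely follows from that choice.

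Retinoic acid genes went both ways. LRAT, which esterifies retinol for storage, read 10.77 in EtOH and 10.36 in EtOH+FA, against 9.48 in untreated and 9.40 in FA, a mean difference of 1.13 ± 0.10 (SE). RDH10, which oxidises retinol to retinal, was 0.63 ± 0.07 (SE) higher. RDH10 read 7.41 in untreated and 7.48 in FA, below the brightness cut of 7.71, and passed the filter only through the ethanol arrays. CRABP2, the carrier of retinoic acid to the nucleus, read 8.41 in EtOH and 8.81 in EtOH+FA, against 9.42 in untreated and 9.38 in FA. CYP26A1, which degrades retinoic acid, and STRA6, the receptor for retinol uptake, stood at -0.42 ± 0.07 and -0.41 ± 0.08 (SE). Of the 10 tested members, 3 were higher and 3 lower in both pairs, close to the 33.2% and 24.4% of all genes. The gene-level fit called 2 higher (LRAT and RDH10) and 3 lower (CRABP2, CYP26A1 and STRA6), where 1.99% and 1.13% of all genes were called.

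Notch genes had more members lower than higher, with small medians. Of 16 tested, 1 was higher and 10 lower in both pairs, against 33.2% and 24.4% of all genes, with medians of -0.03 without FA and -0.16 with FA, the reverse order of the hypoxia list. HES1, a target of Notch, read 8.51 in EtOH and 8.27 in EtOH+FA, against 8.90 in untreated and 8.66 in FA. It was the 1 of 16 members called by the gene-level fit, where 1.13% of all genes were called lower. NOTCH1 stood at -0.36 ± 0.08 and RBPJ, the DNA-binding partner, at -0.22 ± 0.06 (SE). Among 5 tested protocadherin beta genes, adhesion proteins of neurons, 1 was higher and 4 lower in both pairs, and PCDHB16 read 7.86 in EtOH and 7.80 in EtOH+FA, against 8.31 in untreated and 8.32 in FA. IFITM1 and IFITM3, membrane proteins induced by interferon, were -0.58 ± 0.10 and -0.44 ± 0.07 (SE). They were 2 of 6 tested interferon genes, and 1 was higher in both pairs.

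Pluripotency genes went both ways. Of 27 tested, 13 were higher and 7 lower in both pairs (background 33.2% and 24.4%), with medians of 0.05 without FA and 0.00 with FA. The gene-level fit called TFCP2L1, a factor of the ground state, higher at 0.53 ± 0.07 and THY1 lower at -0.48 ± 0.08 (SE). Of all genes it called 1.99% higher and 1.13% lower. SOX2 differed by 0.01 ± 0.06, LIN28A by -0.02 ± 0.06 and DNMT3B by 0.07 ± 0.07 (SE). Cell cycle and replication genes had 7 of 33 higher and 14 lower, with medians of -0.005 without FA and -0.063 with FA. The background was again 33.2% and 24.4%. CDC6, which licenses replication origins, was the 1 of 33 members called, at 0.52 ± 0.09 (SE), beside 3.12% of all genes called in either direction.

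Lineage lists had few members bright enough to test. Over all genes, 33.2% were higher and 24.4% lower in both pairs. The shares higher were near that in neural progenitor (29.4%), mesenchyme and matrix (30.0%) and HOX (33.3%). Early mesoderm had 5 of 9 tested genes higher and 0 lower in both pairs, endoderm 7 of 11 and 2, neural progenitor 5 of 17 and 4, neuron 4 of 7 and 2, neural crest 4 of 10 and 2, trophoblast 2 of 5 and 0, heart and muscle 2 of 5 and 1, mesenchyme and matrix 3 of 10 and 2, and HOX 2 of 6 and 1. Their median differences lay between 0.06 and 0.23 in the pair without FA and between -0.05 and 0.06 in the pair with FA. The pair without FA holds the EtOH array, and its median over clusters changed with brightness. Without FA the highest were HOX at 0.23, endoderm at 0.21 and early mesoderm at 0.16, where 9 of 9 genes were higher, against 5641 of 11051 over all genes. Single genes in them stood out: the neuronal microtubule regulator STMN2 was 0.79 ± 0.13 higher, the neural crest factor SNAI2 0.59 ± 0.11 higher and HOXB2 0.54 ± 0.07 higher, while SNAI1 was -0.45 ± 0.06, the sarcomere protein ACTN2 -0.63 ± 0.09 and the filament protein VIM -0.50 ± 0.12 (SE).

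Other pathways had members in both directions. The counts below stand beside 33.2% higher and 24.4% lower in both pairs over all genes. Cholesterol synthesis had 4 of 20 higher and 3 lower in both pairs, and its median was -0.09 without FA and 0.07 with FA, so the pairs disagreed. WNT had 11 of 23 higher and 3 lower, Hedgehog 5 of 10 and 2, FGF and ERK feedback 6 of 18 and 5, BMP and TGF-beta 3 of 18 and 7, and NODAL signalling 5 of 14 and 3. Targets of p53 had 6 of 18 and 5, DNA methylation and chromatin 5 of 18 and 7, heat shock and chaperones 7 of 15 and 5, immediate early genes and MYC 3 of 18 and 7, and imprinted genes 3 of 10 and 3. Of 9 tested genes of ethanol and aldehyde metabolism, 3 were higher and 2 lower, with mean differences of -0.16 to 0.11, and ALDH2, the main mitochondrial acetaldehyde dehydrogenase, differed by 0.08 ± 0.06 (SE). Among 4 tested monocarboxylate transporters, 3 were higher and 1 lower, led by SLC16A9 at 0.52 ± 0.10 (SE). SFRP1, a secreted WNT antagonist, was 0.51 ± 0.08 higher, and SPRY4, a brake on FGF signalling, stood at -0.49 ± 0.07 (SE).

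The agreeing genes were then set beside the undifferentiated array. A gene lies toward it when the ethanol difference has the sign of undifferentiated minus the mean of untreated and FA. Of 317 genes at least 1.2-fold higher in both pairs, 273 (86.1%) were also higher in undifferentiated cells, and of 201 lower genes 183 (91.0%) were also lower there. Over all genes tested, 58.5% were higher and 41.2% lower in undifferentiated cells. At 1.5-fold the counts were 21 of 26 (80.8%) and 12 of 12. The arrays without ethanol are subtracted on both sides of this comparison, and that by itself pushes directions toward agreement, by an amount that was not estimated.

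A form that shares no array gave smaller shares at 1.2-fold. It also chose genes by 1 pair instead of both, and the reason for the drop was not tested. Genes chosen by the pair with FA at 1.2-fold, and read through undifferentiated minus untreated, lay toward undifferentiated cells in 700 of 897 higher cases (78.0%) and 286 of 346 lower cases (82.7%), against 58.8% and 40.2% of all genes. Genes chosen by the pair without FA, and read through undifferentiated minus FA, did so in 712 of 1029 higher cases (69.2%) and 1190 of 1506 lower cases (79.0%), against 57.9% and 41.2%. At 1.5-fold the shares were 82.0% of higher and 94.4% of lower genes chosen with FA. They were 82.4% and 88.4% for genes chosen without FA. With each array centred on its own median, 70.3% of all genes were higher and 29.7% lower in undifferentiated cells, and the shares toward them among agreeing genes were 89.9% and 84.0%. The lower genes therefore stood farther from their background than the higher genes in each of these forms.

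**Figure D4:**
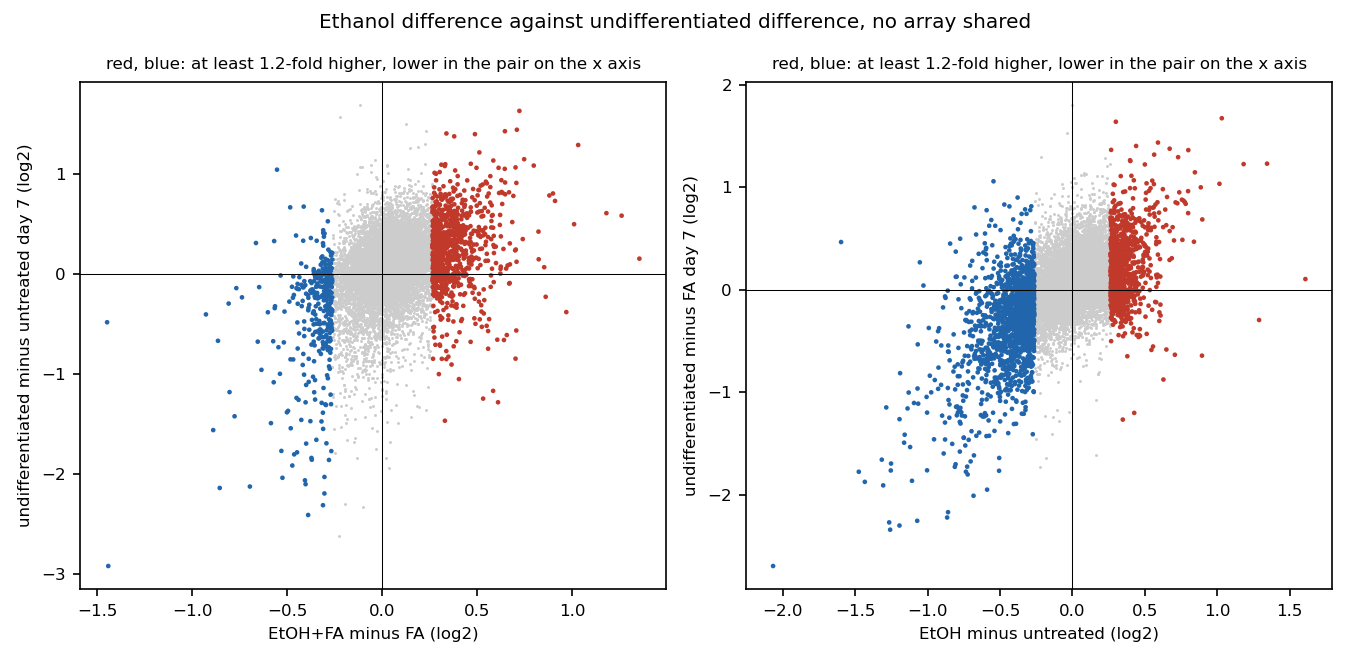
Each point is 1 of 11051 genes; the left panel plots undifferentiated minus untreated against EtOH+FA minus FA, the right panel undifferentiated minus FA against EtOH minus untreated, all on the log2 scale, with genes at least 1.2-fold higher in red and lower in blue. Of the blue genes, 82.7% (left) and 79.0% (right) lie below 0 on the y axis, and of the red genes 78.0% and 69.2% lie above it.

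Lying toward undifferentiated cells did not mean reaching them. Of the 26 genes at least 1.5-fold higher, the undifferentiated array was beyond both ethanol arrays for 8, in neither position for 13, and on the far side of both arrays without ethanol for 5. Of the 12 lower genes it was beyond for 7, in neither position for 5 and on the far side for 0. CHAC1 stood at 10.55 in undifferentiated cells, above 9.96 and 9.60 in the ethanol arrays. SLC7A11, at 11.58, lay between its ethanol arrays, and SLC7A5, at 10.16, did so as well. PIEZO2 (7.27) and SSTR1 (8.56) were lower in undifferentiated cells than on any day 7 array, and LRAT (9.10) likewise.

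List medians against undifferentiated cells varied. Hypoxia response genes had a median of -1.21 in undifferentiated cells minus day 7 without ethanol, and 37 of 38 were lower there. Both this median and the ethanol medians are taken against the same arrays without ethanol, and are set side by side only. Aminoacyl-tRNA synthetases were higher in undifferentiated cells in 19 of 19 cases, with a median of 0.45, and folate and one-carbon genes in 21 of 22, also with 0.45. Glycolysis had a median of -0.42. Cell cycle genes, by contrast, were higher in undifferentiated cells in 27 of 33 cases with a median of 0.28, yet their median ethanol difference was -0.03. Of the 40 named genes, 17 of 20 higher and 18 of 20 lower ones lay toward undifferentiated cells, the exceptions being LRAT, PIEZO2 and SSTR1 on the higher side and H2BC12 and ID3 on the lower side.

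The same pairs at day 21 share no array with those at day 7. limma's contrast of the ethanol difference at day 7 minus that at day 21 called 0 of 16856 clusters (0%), with a smallest adjusted p of 0.149 and 1340 clusters at an unadjusted p under 0.05. No gene is therefore called particular to day 7. Of the 40 named genes, 14 higher and 14 lower ones kept their sign in both day 21 pairs. The mean ethanol difference of SLCO4C1 was 1.04 at day 7 and 1.23 at day 21, that of SLC7A5 0.96 at day 7 and 0.73 at day 21, and that of CXCR4 -0.55 at day 7 and -0.51 at day 21. SHISA3 stood at 1.48 at day 7 and -0.21 at day 21, and CRABP2 at -0.79 at day 7 and 0.53 at day 21.

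Some lists had different medians on the 2 days and others nearly equal ones. The hypoxia list's median difference was -0.37 at day 7 and -0.17 at day 21, and that of glycolysis -0.25 at day 7 and -0.07 at day 21. Amino acid transporters had 0.25 at day 7 and 0.20 at day 21, metallothioneins and zinc transporters 0.19 at day 7 and 0.20 at day 21, and protocadherin beta genes -0.47 at day 7 and -0.48 at day 21. These are medians of single values per gene and were not tested between days.

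**Figure D5:**
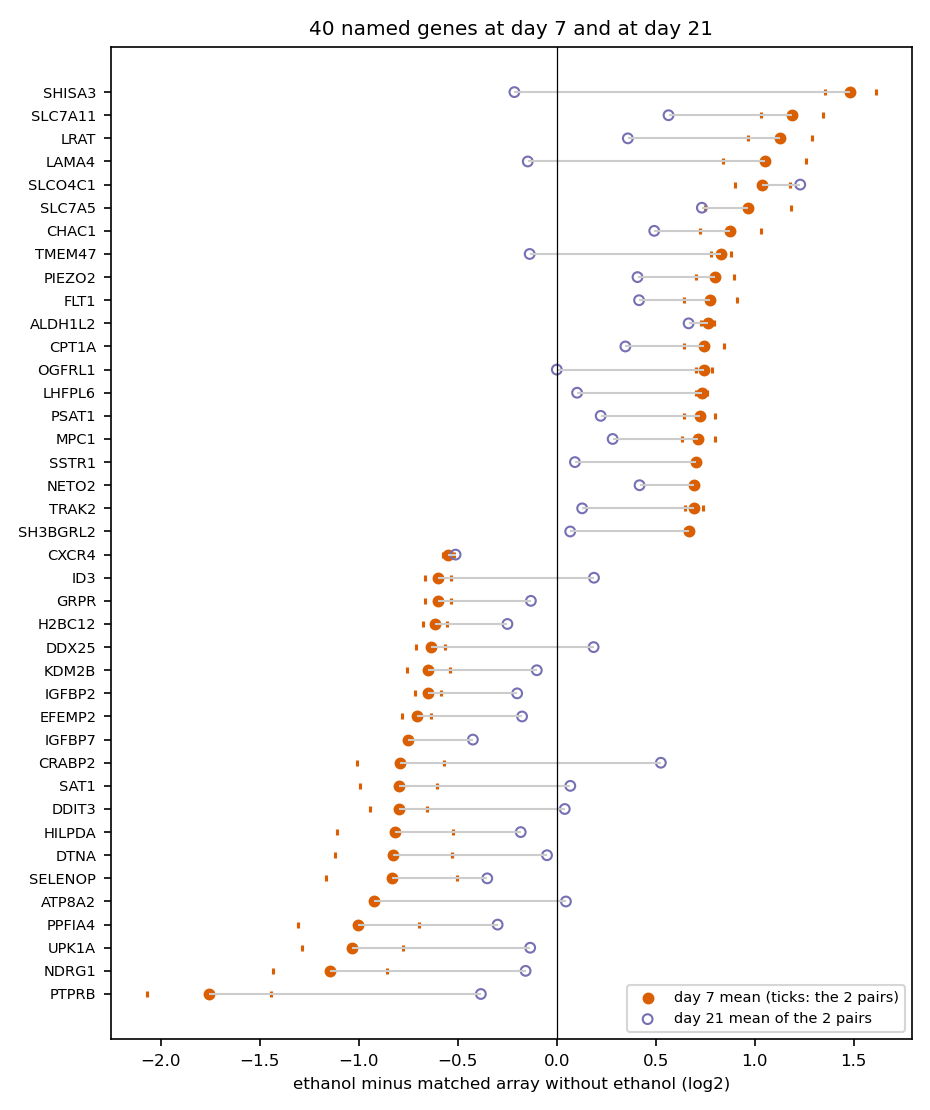
For the 40 named genes (y axis), filled orange points give the mean ethanol difference at day 7 with ticks for its 2 pairs, and open points the mean of the 2 pairs at day 21, on the log2 scale (x axis). SLCO4C1 and CXCR4 have points close together, while SHISA3 and CRABP2 have day 21 points on the other side of 0.

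Among the named genes the pairs differed in size. The ethanol difference was larger without FA in 13 of 20 higher and 18 of 20 lower genes. The pair without FA is also the pair that holds the EtOH array, so FA and that array cannot be told apart. Differences of opposite sign occurred in 4451 of 11051 genes, and in 56 of them both differences reached 1.2-fold and in 0 both reached 1.5-fold. CSH2, a placental hormone gene, read 8.19 in EtOH and 7.41 in EtOH+FA, against 7.73 in untreated and 8.06 in FA, and DUSP10, a MAP kinase phosphatase, read 7.92 in EtOH and 8.78 in EtOH+FA, against 8.34 in untreated and 8.32 in FA. In neither was there a common ethanol side, and mean differences were -0.10 ± 0.25 and 0.02 ± 0.20 (SE).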

How the data were processed

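NCCIT cells in 9 conditions were each measured on 1 Affymetrix whole-transcript array, using Trizol RNA and biotinylated cDNA, per the labels' protocols. What was deposited are log2 expression levels of transcript clusters. Per the submitters' processing notes, the authors obtained them with RMA, which subtracts background, quantile-normalizes arrays and summarises probes, in Affymetrix Expression Console 1.3.1. Base 2 was inferred from the values, 2.49 to 14.31 with array medians of 7.67 to 7.76. RMA removes a shift common to most transcripts and compresses differences of dim ones. No source used here names the genome build of the annotation. No 2 arrays were identical. Precision is limited by how few arrays there are.

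The platform annotation gave 19460 of 33297 clusters 1 symbol, 1754 several and 12083 none. Entrez IDs of 19429 clusters matched the RefSeq gene table, which changed 0 symbols. A gene with more than 1 cluster (769 of 18417) was represented by the one with the highest mean over the 9 arrays. Clusters were tested if their mean over the 4 day 7 arrays exceeded the table median, 7.71, which left out 16441. Both ethanol arrays enter that mean, so a gene dim without ethanol could pass through them alone.

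limma 3.58.1 in R 4.3.3 (lmFit, eBayes) was fitted over the 9 arrays with terms for day, ethanol and FA within each day and the undifferentiated array, which left 2 residual degrees of freedom beside a prior worth 3.39. The day 7 effect is the mean of both matched differences, so its error reflects how far the pairs of each day disagree. P-values were adjusted with Benjamini-Hochberg over all clusters tested, with a threshold of 0.05. The script was tested on simulated data. Tables used Python 3.11.15 with pandas 2.3.3.

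Genes named were the 20 in each direction with the largest weaker matched difference, up to 4 per gene list by the same measure, the 5 in each direction with the largest difference of day 7 minus day 21, and the 8 with the largest differences of opposite sign. Small RNAs and provisional names (LOC, KIAA, FLJ, DKFZ, MGC, LINC, HCG, open reading frame, antisense and intronic names) were passed over, and that exclusion was settled after values had been seen. Other list members, and genes named for a promoter word, were chosen after their values were seen. The members and the gene lists were chosen with earlier results of these data known, and no list was given a test. Promoter sequences were those of RefSeq for 8917 of the 11051 genes tested, of 27305 in the table. Alternatives were other sample sets, FA terms, filters, scalings, gene summaries, a variance trend, each array left out, each pair alone and comparisons that share no array.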

Additional observations from a re-analysis of the deposited data

Results flagged for a closer look

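Some genes differed in opposite directions at day 7 and at day 21, in both pairs of each day. limma's contrast of day 7 minus day 21 gave SHISA3 1.69, LAMA4 1.2, YAF2 1.04, LRRN1 0.98 and TMEM47 0.96 on the log2 scale, since each was higher with ethanol at day 7 and lower with it at day 21. The same contrast gave CRABP2 -1.31, CDH1 -1.18, DDIT3 -0.84, DDX25 -0.82 and ID3 -0.79, lower with ethanol at day 7 and higher with it at day 21. Some day 21 differences were small: DDIT3 stood at 0.04 in both pairs, and LAMA4 at -0.24 without FA and -0.05 with FA. None of these genes passed the limma contrast, with adjusted p-values of 0.149 for SHISA3 and 0.27 to 0.341 for the others. CDH1, the epithelial cadherin, rested on the pair without FA, at -0.63 against -0.07 with FA.

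In 8 genes the ethanol difference at day 7 had opposite signs without and with FA, and the gap was not tested. The differences without FA were 0.46 for CSH2, 0.35 for LCE3E, -0.59 for ZNF701, -0.51 for RAB28, -0.42 for DUSP10, -0.39 for PIGA, -0.37 for FAM114A2 and -0.34 for TIMP3. With FA they were -0.65 for CSH2, -0.36 for LCE3E, 0.39 for ZNF701, 0.35 for RAB28, 0.46 for DUSP10, 0.34 for PIGA, 0.47 for FAM114A2 and 0.35 for TIMP3. They are the largest of 4451 genes of opposite sign, and each value is a difference between 2 arrays.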

How the results depend on the processing

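The count of limma calls depended on the setting. Against 0 of 16856 clusters, 0 were called with the day 7 arrays alone, with and without an FA term, with no brightness filter or with centred arrays. A common FA term gave 1, repeated quantile normalization 1, a filter on the highest value 17, a variance prior with a trend 55, a stricter brightness filter 72, the mean of all clusters of a gene 327 and 1 cluster a gene 345. Leaving out an array gave 2 to 3917 calls: 2 without EtOH or without untreated, and 3917 without EtOH+FA or without FA at day 7. Day 7 is then saturated and the spread comes from day 21 alone, with the remaining pair assumed to vary alike. The contrast of day 7 minus day 21 gave 0 calls under the other alternatives run and 0 to 893 with an array left out, 893 without EtOH+FA or without FA.

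The 28 clusters at least 1.5-fold higher became 43 with no filter, 12 with the stricter filter, 80 in the pair without FA alone and 83 in the pair with FA alone. The 22 lower became 96, 11, 677 and 45, and 12 with 1 cluster a gene. The shares lying toward undifferentiated cells, 86.1% and 91.0%, became 89.9% and 84.0% with centred arrays, 78.0% and 82.7% for genes chosen by the pair with FA, and 69.2% and 79.0% for genes chosen by the pair without FA. The counts in single pairs, and choosing genes by 1 pair within the planned crossed comparison, were added after the data were seen. List medians moved between the pairs. In the pair without FA and the pair with FA they were -0.549 and -0.175 for hypoxia (-0.372 over both), -0.329 and -0.131 for glycolysis (-0.248), 0.317 and 0.172 for amino acid transporters (0.249), 0.171 and 0.029 for synthetases (0.082), 0.155 and 0.102 for folate and one-carbon genes (0.143), 0.202 and 0.175 for metallothioneins and zinc transporters (0.189) and -0.027 and -0.164 for Notch (-0.085). None of these 7 medians changed sign in a single pair or with centred arrays. The named genes had 0 reversals over 15 settings, of which the stricter filter left 18 of the 40 to test and the mean of all clusters 38. These genes were chosen because both differences share a sign, and the settings average those differences or keep 1 of them. Little room was left for a reversal, so that count describes the rule and is no separate evidence. No paired analysis by replicate number was possible because each condition has 1 array, so the matching rests on FA.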
